A study of Mus musculus with 24 samples.

Results

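Disease-associated microglia are the state that microglia, the resident macrophages of the brain, take on near plaques, dying neurons and tau pathology. A set of 10 genes of this state is described here in the hippocampus of PS19 mice: Clec7a, Cst7, Itgax, Axl, Lpl, Spp1, Gpnmb, Cd9, Cd63 and Ccl6. They were chosen by symbol, and all 10 were found among the 24058 symbols of the count table and passed the filter on low counts that left 16118 genes. PS19 mice carry a human tau transgene with the P301S change, driven by the mouse prion promoter, and every mouse of the series carried it, controls included. The alleles compared were mouse Trem2 on both chromosomes (Trem2+/+), a human TREM2 allele without (WT-TREM2) or with (R47H-TREM2) the R47H change opposite 1 mouse allele. Bulk poly(A)-selected RNA of the hippocampus was sequenced as 24 libraries in 6 groups. Under the title prefix LG72 there were 5 females and 5 males with R47H-TREM2, and 3 females and 2 males with Trem2+/+. Under the prefix LG73 there were 6 females with WT-TREM2 and 3 with Trem2+/+. The labels give neither the mice's age nor the meaning of the prefixes, and no male WT-TREM2 group was analysed here. They do not state how many mice went into a library, so p-values measure the spread between libraries.

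Trem2 is a lipid-sensing receptor on microglia that signals through the adaptor Tyrobp. In mouse models of amyloid disease, microglia that lack Trem2 express little of the later part of this programme, which includes Clec7a, Cst7, Itgax, Axl, Lpl, Spp1 and Cd9. The same genes are used to follow microglial responses in tauopathy, and the R47H change, a risk factor for Alzheimer's disease, weakens ligand binding by the receptor. Several of the genes are not restricted to microglia: Lpl is also transcribed by hippocampal neurons, Axl and Cd63 by astrocytes, and Cd9 by oligodendrocytes. In bulk tissue, fewer cells of a type and less RNA per cell cannot be told apart.

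RefSeq promoters (GRCm38.p6) could be matched for 9 of the 10 genes, all but Lpl. Within 250 bases before to 50 bases after the start, GGAAGT, the core bound by the myeloid ETS factor PU.1, was found on either strand in 5 of the 9 (Cst7, Itgax, Spp1, Cd63 and Ccl6). It is present in 23.8% of all 32851 windows of that length. TGANTCA, the AP-1 motif, was found in 3 of the 9 (Cst7, Itgax and Gpnmb; 7.81% of all windows). The E-box CACGTG was found in none of the 9 (7.15% of all windows). The 3 motifs share no letters in these windows and were chosen after the sequences had been seen, and a match describes the letters only. The 150 bases before the start are shown for 4 genes with GGAAGT in this stretch and for Clec7a, the gene with the widest range of levels, which has none of the 3 motifs. They read 5′ to 3′ on the gene's own strand, and capitals mark GGAAGT or its complement ACTTCC and, in Itgax, TGAGTCA. The AP-1 match of Cst7 and the GGAAGT of Cd63 lie outside the bases shown.
Cst7, chr2:150570265-150570414, plus strand: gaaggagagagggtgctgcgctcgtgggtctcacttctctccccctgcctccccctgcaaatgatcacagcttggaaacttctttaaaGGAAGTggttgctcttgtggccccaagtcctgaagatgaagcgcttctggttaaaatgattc
Itgax, chr7:128129400-128129549, plus strand: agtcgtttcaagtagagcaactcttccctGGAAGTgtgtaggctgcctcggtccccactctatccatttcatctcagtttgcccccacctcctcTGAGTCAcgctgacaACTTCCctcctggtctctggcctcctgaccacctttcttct
Spp1, chr5:104434961-104435110, plus strand: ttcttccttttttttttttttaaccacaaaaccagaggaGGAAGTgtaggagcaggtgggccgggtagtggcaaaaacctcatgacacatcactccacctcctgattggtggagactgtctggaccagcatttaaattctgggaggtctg
Ccl6, chr11:83593088-83593237, minus strand: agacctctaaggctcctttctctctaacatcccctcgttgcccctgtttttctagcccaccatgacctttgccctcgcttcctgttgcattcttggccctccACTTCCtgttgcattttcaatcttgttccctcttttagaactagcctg
Clec7a, chr6:129472780-129472929, minus strand: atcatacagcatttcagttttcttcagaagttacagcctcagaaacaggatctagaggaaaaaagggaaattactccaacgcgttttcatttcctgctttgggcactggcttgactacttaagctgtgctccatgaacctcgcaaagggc

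Levels are given as CPM, the counts of a gene scaled to a common total of all tested genes and corrected for composition between libraries. The libraries held between 13261478 and 23807390 counts. The deepest R47H-TREM2 female library (17442293) held fewer counts than the shallowest of its controls (17545680). Trem2 itself measured 7.14 to 29.7 CPM in R47H-TREM2 females against 5.81 to 26.4 CPM in their controls. In males it measured 6.51 to 15.2 CPM against 20.8 to 27.3 CPM, and in WT-TREM2 females 2.78 to 33.1 CPM against 8.94 to 17.6 CPM. The adjusted p of its differences was 0.932, 0.779 and 0.979 (edgeR's quasi-likelihood test). The labels do not say how reads of the human alleles were counted. In 6 libraries a gene of a neighbouring tissue was high: Prl (pituitary) in R47H-TREM2 female 5 and LG73 Trem2+/+ female 3, Omp (olfactory tissue) in LG72 Trem2+/+ female 1, and Adora2a (striatum) in LG72 Trem2+/+ female 3 and WT-TREM2 females 2 and 5. Results are given with and without these 6 libraries. Of 20 genes of resting microglia, none was at 0 summed over any group. In bulk tissue this shows only that their RNA was present, not how much of a library came from microglia.

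Per kilobase of exon, the tetraspanins were the most abundant of the 10 genes, with a mean level over the 24 libraries of 42.5 CPM per kb for Cd9 and 40.5 CPM per kb for Cd63. Itgax and Gpnmb were the least abundant, at 1.04 and 1.32 CPM per kb. The genes also differed in how far they ranged. The highest group mean was 13.6 times the lowest for Clec7a, 8.44 times for Gpnmb, 6.85 times for Cst7, 6.52 times for Itgax, 4.83 times for Ccl6 and 3.29 times for Spp1. For Lpl, Cd63, Cd9 and Axl this ratio was 2.52, 2.51, 2.47 and 1.58. The R47H-TREM2 females had the highest group mean for 4 genes (Clec7a, Cd9, Cd63 and Ccl6), the Trem2+/+ males for 5 (Cst7, Itgax, Axl, Spp1 and Gpnmb) and the LG73 Trem2+/+ females for Lpl. The LG72 Trem2+/+ females had the lowest group mean for 8 genes, and the LG73 Trem2+/+ females for Axl and Spp1. Between groups that were neighbours in the order of means, the libraries overlapped for 7 of the 10 genes at every step. For Itgax, Spp1 and Cd63, 1 step each was free of overlap. The share of all genes with such a step was not worked out, so these counts cannot be set against a background.

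**Figure D1:**
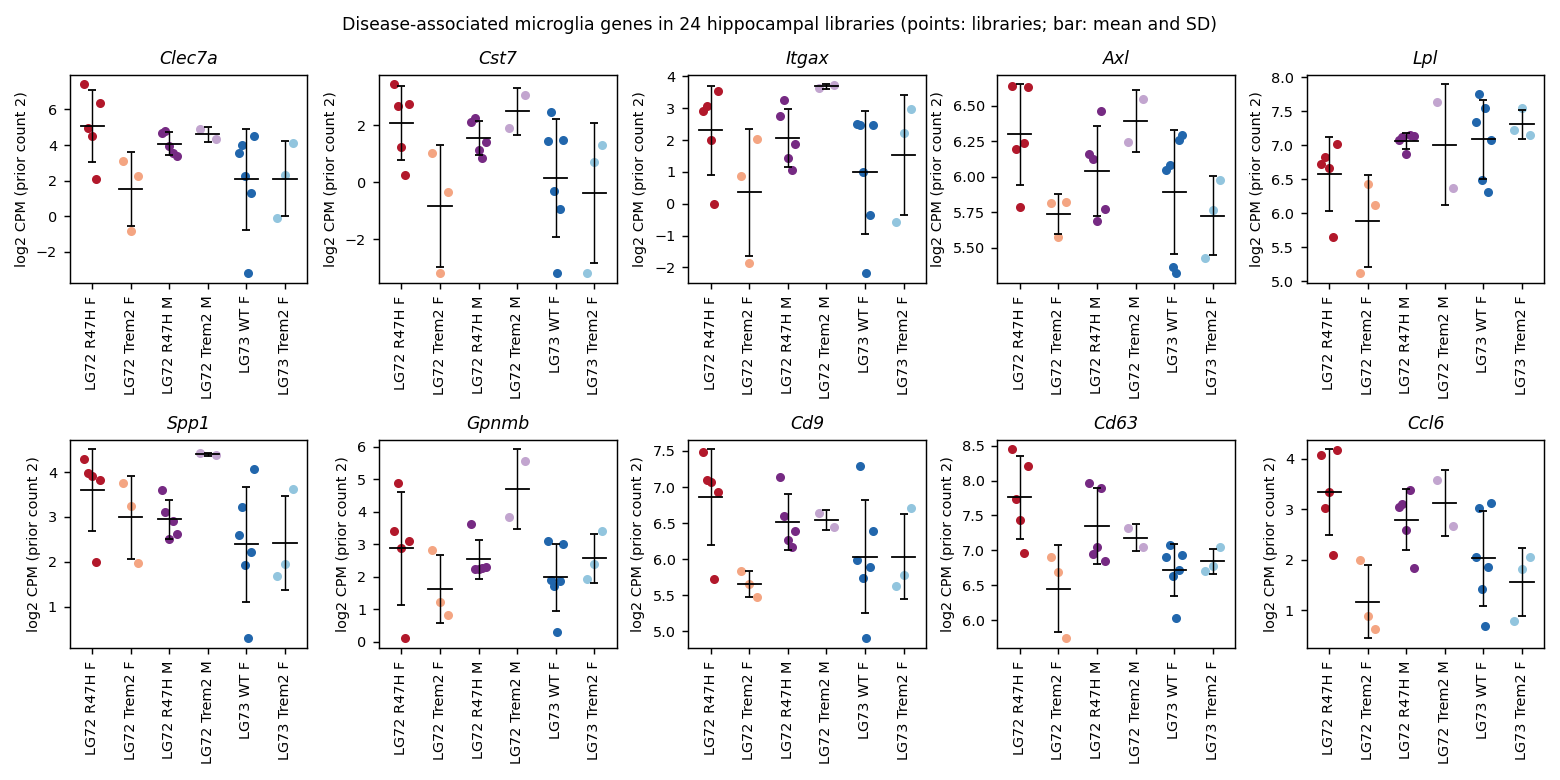
Level of each of the 10 genes in the 24 libraries, as log2 CPM with a prior count of 2, by group (LG72 and LG73 are title prefixes, F and M the sexes). Points are libraries, bars the mean and SD; the scale differs between panels, and the LG72 Trem2+/+ females have the lowest mean CPM for 8 genes.

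The first question of the design was whether an R47H-TREM2 allele changes the hippocampus of PS19 females. All 10 genes had a higher fitted level in R47H-TREM2 females than in LG72 Trem2+/+ females, as did 50.5% of all genes, with a median log2 fold change of 1.49 (0.00 over all genes tested). None of the 10 passed an adjusted p under 0.05. No gene of the 16118 passed it (0% called by edgeR; 2262 genes had an unadjusted p under 0.05). At an unadjusted p under 0.05, 7 of the 10 were higher and none was lower, against a background of 8.68% and 5.35% of all genes. In 2 of the 10, Cd63 and Ccl6, every R47H-TREM2 library lay above every control (background 3.59%), and in none did every library lie below (2.41%).

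Among the receptors, Clec7a, which encodes the beta-glucan receptor dectin-1, showed the widest range. It measured 172, 31.1, 22.7, 4.19 and 80.5 CPM in the 5 R47H-TREM2 females and 8.45, 0.447 and 4.76 CPM in the 3 controls. Of the 5, 4 lay above every control and R47H-TREM2 female 4 did not. The log2 fold change was 3.77 (SE 1.19, edgeR adjusted p = 0.198). Itgax, the integrin chain CD11c, measured 7.42, 8.24, 3.90, 0.892 and 11.4 CPM against 1.72, 0.168 and 3.99 CPM. Here R47H-TREM2 females 3 and 4 lay within the range of the controls, and the log2 fold change was 1.68 (SE 0.93, edgeR adjusted p = 0.416). Axl, a TAM receptor kinase that binds phosphatidylserine through Gas6, measured 99.6, 73.1, 55.2, 75.2 and 99.2 CPM against 56.2, 47.6 and 56.6 CPM. Only R47H-TREM2 female 3 was within the controls' range, and the log2 fold change was small (0.59, SE 0.24, edgeR adjusted p = 0.286).

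Cst7 encodes cystatin F, an inhibitor of lysosomal cysteine proteases. It measured 10.9, 6.30, 2.25, 1.10 and 6.71 CPM in R47H-TREM2 females and 1.94, 0 and 0.680 CPM in controls, so that 4 of 5 lay above every control (log2 fold change 2.63, SE 1.13, edgeR adjusted p = 0.304). Lpl encodes lipoprotein lipase, which releases fatty acids from lipoproteins. It measured 105.8, 113, 102, 49.95 and 129.9 CPM against 34.7, 85.9 and 69.2 CPM. Again all but R47H-TREM2 female 4 were above the controls (log2 fold change 0.66, SE 0.33, edgeR adjusted p = 0.377).

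The tetraspanins Cd9 and Cd63 organise membrane proteins at the cell surface and in late endosomes and exosomes. Cd9 measured 178, 136.2, 134, 52.8 and 122 CPM in R47H-TREM2 females and 56.9, 50.1 and 44.2 CPM in controls. Cd63 measured 349, 214, 173, 125 and 296 CPM against 120.1, 104 and 53.2 CPM. For Cd63 the lowest R47H-TREM2 library, again female 4, was just above the highest control, while for Cd9 it was below it. The log2 fold change was 1.31 for Cd9 (SE 0.40, edgeR adjusted p = 0.193) and 1.33 for Cd63 (SE 0.33, edgeR adjusted p = 0.144).

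Of the secreted and shed products, the chemokine Ccl6 had the clearest separation. It measured 16.6, 8.08, 9.99, 4.19 and 18.0 CPM in R47H-TREM2 females and 3.89, 1.73 and 1.44 CPM in controls, a log2 fold change of 2.27 (SE 0.57, edgeR adjusted p = 0.144). Ccl6 and Cd63 stood at rank 55 and rank 60 of all genes by p. Gpnmb, a lysosomal and cell-surface glycoprotein, measured 10.4, 29.5, 7.28, 0.961 and 8.47 CPM against 6.95, 2.24 and 1.66 CPM. Its R47H-TREM2 libraries held both the highest and the lowest of the 8 values (log2 fold change 1.66, SE 0.74, edgeR adjusted p = 0.319). Spp1, the secreted phosphoprotein osteopontin, measured 19.3, 15.6, 14.9, 3.84 and 14.0 CPM against 13.4, 9.39 and 3.78 CPM. The groups overlapped at R47H-TREM2 female 4, and the difference was about the size of its error (log2 fold change 0.61, SE 0.59, edgeR adjusted p = 0.643).

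R47H-TREM2 female 4 stood apart from the other 4 for most of the genes, and its albumin transcript level was the highest of the 5 at 157 CPM. R47H-TREM2 female 5 followed at 105 CPM of albumin transcript and lay above every control for each of the genes. Its Prl level was 979 CPM. What sets R47H-TREM2 female 4 apart was not tested. R47H-TREM2 female 4 was picked out on these same genes, so higher counts without it follow in part from that choice. Without it, 8 of the 10 genes had every R47H-TREM2 library above every control (6.51% of all genes), 9 had an unadjusted p under 0.05 (9.84% of all genes) and the smallest adjusted p was 0.0619 (edgeR). Without R47H-TREM2 female 1 or without LG72 Trem2+/+ female 2, 5 genes had an unadjusted p under 0.05 (5.96% of all genes in each case), and with limma-voom 3 had (5.71%). Without LG72 Trem2+/+ female 1, 4 genes were free of overlap (8.73% of all genes). Without the 6 libraries high in Prl, Omp or Adora2a, which left 1 control, all 10 genes were still higher, 5 had an unadjusted p under 0.05 (4.42% of all genes) and 7 were free of overlap (18.6%). In that fit the smallest adjusted p was 0.719 and the median log2 fold change 1.88. The Wald test of DESeq2 called Cd63 (adjusted p = 0.0155) and Ccl6 (adjusted p = 0.00767), among 187 genes of all.

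**Figure D2:**
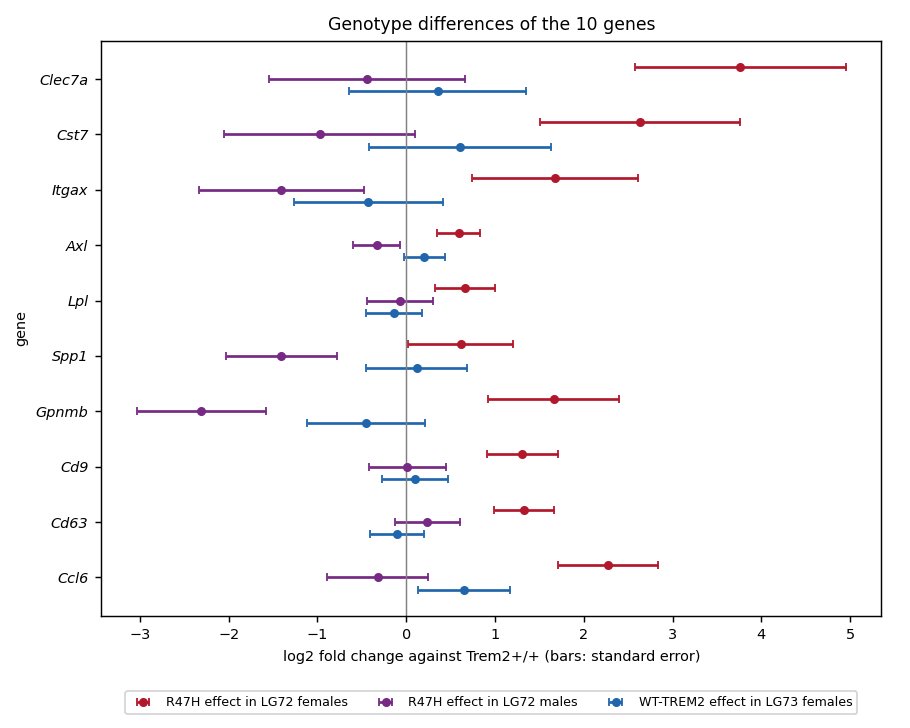
Log2 fold change against Trem2+/+ of the same prefix and sex for each gene, with standard errors as bars (edgeR). R47H-TREM2 females (red) lie above 0 for all 10 genes, R47H-TREM2 males (purple) for 2 and WT-TREM2 females (blue) for 6; none passed an adjusted p under 0.05.

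Other microglial genes moved with the 10 in females. Of 32 further genes of the disease-associated programme that were tested, Trem2 itself included, 28 were higher in R47H-TREM2 females (median log2 fold change 0.79). At an unadjusted p under 0.05, 14 were higher and 1 was lower, against 8.68% and 5.35% of all genes. Csf1, a growth factor of microglia, measured 16.1 to 50.4 CPM against 14.6 to 21.97 CPM (log2 fold change 0.92, SE 0.32, edgeR adjusted p = 0.228). Cd68, a lysosomal membrane protein of phagocytes, measured 9.81 to 34.1 CPM against 8.38 to 14.3 CPM (log2 fold change 1.19, SE 0.42, edgeR adjusted p = 0.238). The lysosomal protease Ctsd measured 392 to 1109 CPM against 405 to 472 CPM (log2 fold change 0.94, SE 0.33, edgeR adjusted p = 0.238). All 20 genes of resting microglia were also higher (13 at an unadjusted p under 0.05, against the same 8.68% of all genes, median 0.97). Markers of several other cell types moved in the same direction, while only 1 of 10 neuronal markers was higher (median −0.33). Of 5 markers of oligodendrocyte precursors 3 were higher (median 0.08, 1 higher and 1 lower at an unadjusted p under 0.05). The part of these cells in the result was not tested. All 10 oligodendrocyte markers were higher, with a summed level of 8291 to 18855 CPM against 5007 to 6381 CPM and no marker at 0. All 8 astrocyte markers were higher, at 7230 to 19867 CPM against 4504 to 7949 CPM, also with none at 0. Of 7 tested genes of neutrophils, monocytes and lymphocytes 6 were higher, but the whole list of 14 summed to 2.40 to 8.33 CPM against 0.765 to 1.78 CPM. All 8 mural markers were higher (median 0.46, summed level 100.8 to 168 CPM against 79.8 to 108 CPM), as were 7 of 8 endothelial markers (median 0.33, 143 to 192 CPM against 119.9 to 139 CPM) and 8 of 9 markers of meningeal fibroblasts (median 0.87, 78.3 to 327 CPM against 28.3 to 199.9 CPM). All 9 choroid plexus markers were higher too (median 1.74, 636 to 5962 CPM against 336 to 1257 CPM), and no marker of these 4 lists was at 0. Of 5 tested markers of border macrophages 3 were higher (median 1.48). The whole list of 8 summed to 2.88 to 15.97 CPM against 1.70 to 5.001 CPM, with none at 0.

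The level of the 10 genes was then set against that of resting microglia in the same library. A score for each gene group was the mean over its genes of log2 CPM (prior count of 2) after centring each gene on its mean over the 24 libraries. Over the 24 libraries, which share groups, depth and composition, Spearman's rho between the 2 scores was 0.923, and rho between the score of the 10 genes and total counts was −0.407. The score of the 10 genes ran from −0.885 to 1.49 in R47H-TREM2 females and from −1.62 to −0.271 in their controls. Relative to the resting microglia score, the median difference between R47H-TREM2 females and controls over the 10 genes was 0.297 log2 units, against 1.28 without this correction. On that relative scale 7 genes were higher (Clec7a, Cst7, Itgax, Gpnmb, Cd9, Cd63 and Ccl6) and 3 lower (Axl, Lpl and Spp1), and the libraries overlapped for all 10.

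**Figure D3:**
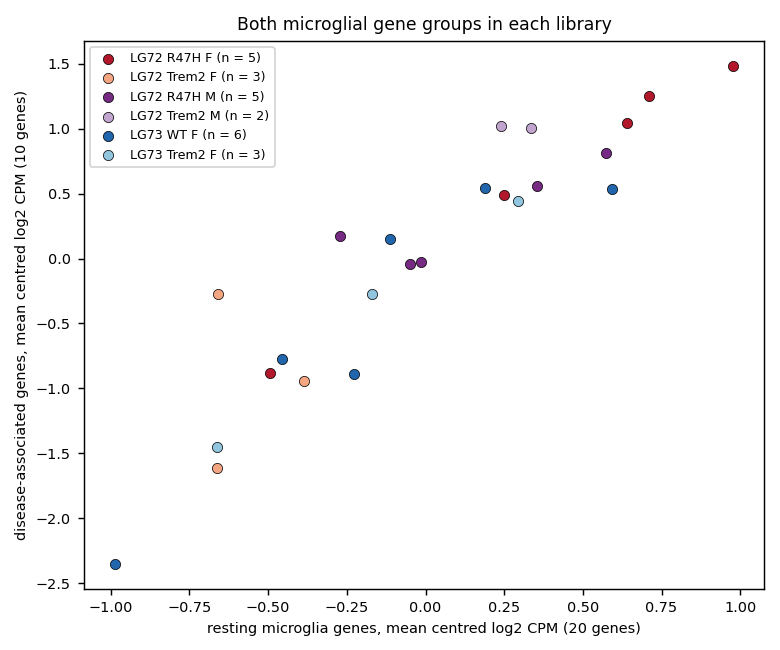
Mean centred log2 CPM of the 10 disease-associated genes against that of 20 resting microglia genes, 1 point per library, coloured by group. The 2 scores rise together across libraries of all groups (rho = 0.923, n = 24); the 2 Trem2+/+ males lie at 1.01 and 1.02 on the vertical axis.

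The same comparison in males gave values of the other direction for most genes. Of the 10 genes, 2 (Cd9 and Cd63) had a fitted level above that of the 2 Trem2+/+ males and 8 below it, where 53% of all genes lay above (median log2 fold change −0.39, 0.03 over all genes tested). None passed an adjusted p under 0.05, as none of all genes did (0% called by edgeR, 995 genes at an unadjusted p under 0.05). At an unadjusted p under 0.05, 2 of the 10, Spp1 and Gpnmb, were lower and none was higher (3.5% and 2.67% of all genes). In 3 genes every R47H-TREM2 male lay below both controls (background 4.95%), and in none did every library lie above them (6.38%).

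Gpnmb measured 12.1, 4.60, 4.61, 4.67 and 4.81 CPM in the 5 R47H-TREM2 males and 14.0 and 46.9 CPM in the 2 controls, which themselves differed widely. Its log2 fold change was −2.31 (SE 0.73, edgeR adjusted p = 0.779). Spp1 measured 12.02, 8.55, 5.57, 7.37 and 6.03 CPM against 21.2 and 20.6 CPM. The controls were close together and well above every R47H-TREM2 male (log2 fold change −1.41, SE 0.63, edgeR adjusted p = 0.779). Itgax measured 6.61, 9.37, 2.59, 1.97 and 3.58 CPM against 12.3 and 13.2 CPM, also without overlap (log2 fold change −1.41, SE 0.93, edgeR adjusted p = 0.786).

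The other 7 genes overlapped between the male groups. Clec7a measured 25.6, 27.8, 15.2, 11.7 and 10.4 CPM against 29.3 and 19.7 CPM (log2 fold change −0.44, SE 1.10, edgeR adjusted p = 0.946). Cst7 measured 4.196, 4.66, 2.06, 1.72 and 2.58 CPM against 3.63 and 8.37 CPM (log2 fold change −0.98, SE 1.07, edgeR adjusted p = 0.850). Both genes were within the controls' range in some R47H-TREM2 males and below it in others. Cd63 measured 250.8, 123, 132.2, 238 and 115 CPM against 159 and 132.4 CPM, with R47H-TREM2 males 1 and 4 above both controls (log2 fold change 0.24, SE 0.37, edgeR adjusted p = 0.897). Cd9 ran from 72.03 to 140.5 CPM against 87.2 and 99.3 CPM, Ccl6 from 3.45 to 10.3 CPM against 6.26 and 11.9 CPM, Axl from 51.5 to 88.1 CPM against 75.5 and 93.4 CPM, and Lpl from 116 to 142 CPM against 82.9 and 199 CPM. For these 4 genes the log2 fold change lay between −0.33 and 0.01.

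With 2 control males, the counts depended on each of them. Without Trem2+/+ male 1, 5 of the 10 genes lay below the remaining control in every library (26.7% of all genes). Without Trem2+/+ male 2 this count was 6 (11.1% of all genes). The number of the 10 genes with a higher fitted level was 4 without Trem2+/+ male 1 and 1 without Trem2+/+ male 2. Each of these fits left 1 control. The log2 fold change of Gpnmb was −2.93 without Trem2+/+ male 1 and −1.19 without Trem2+/+ male 2. Without R47H-TREM2 male 3 or 5, 1 of the 10 genes was lower at an unadjusted p under 0.05. Leaving out the 6 libraries high in genes of neighbouring tissues, none of them male, left 2 genes lower at that level. It left 3 below both controls in every library (4.92% of all genes). The share of all genes lower at an unadjusted p under 0.05 was worked out only with all libraries (3.5%). Relative to the resting microglia score, the median difference in males was −0.267 log2 units, against −0.437 without the correction, and Itgax, Spp1 and Gpnmb again showed no overlap. Of the 32 further programme genes, 8 were higher and 24 lower in R47H-TREM2 males (median −0.31). The lowest p among them belonged to Hif1a, an oxygen-regulated transcription factor, at 58.8 to 85.7 CPM against 93.9 and 129 CPM (log2 fold change −0.51, SE 0.20, edgeR adjusted p = 0.779). Fabp5, a fatty acid binding protein, measured 50.2 to 73.0 CPM against 25.7 and 59.9 CPM (log2 fold change 0.64, SE 0.34, edgeR adjusted p = 0.779). Igf1 measured 8.23 to 14.3 CPM against 14.2 and 15.9 CPM (log2 fold change −0.44, SE 0.25, edgeR adjusted p = 0.779). Of the 20 resting microglia genes, 8 were higher in R47H-TREM2 males.

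The difference of the R47H effect between the sexes was tested directly. It uses the same libraries as the R47H comparison within each sex and is not independent of those results. For all 10 genes the fitted effect was larger in females than in males, as it was for 48.6% of all genes, by a median of 2.31 log2 units (−0.01 over all genes), and for 9, all but Lpl, this difference had an unadjusted p under 0.05 (background 3.54%, with 1.8% of all genes passing it in the other direction). No gene passed an adjusted p under 0.05 (0% called by edgeR, 860 genes at an unadjusted p under 0.05). The difference was 3.97 log2 units for Gpnmb (SE 1.05, edgeR adjusted p = 0.696), which had rank 14 of all genes by p. It was 4.205 for Clec7a (SE 1.53, edgeR adjusted p = 0.731) and 2.60 for Ccl6 (SE 0.78, edgeR adjusted p = 0.696). The same difference was above 0 for all 20 resting microglia genes (median 1.25, 11 at an unadjusted p under 0.05), for 29 of the 32 further programme genes and for all 8 astrocyte markers (median 0.69, 3 at an unadjusted p under 0.05), and their part in the result was not tested. The count of 9 fell to 5 without LG72 Trem2+/+ female 3 (3.12% of all genes), without Trem2+/+ male 1 (3.97%) or without Trem2+/+ male 2 (1.92%). Without the 6 libraries high in genes of neighbouring tissues it was 6 (3.53%).

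The control groups also differed between the sexes. A comparison of the 2 Trem2+/+ males with the 3 LG72 Trem2+/+ females was added after these values had been seen. These are the control libraries of the R47H comparisons, so its result is not independent of theirs. All 10 genes were higher in the males, as were 48.2% of all genes, with a median log2 fold change of 1.60 (−0.02 over all genes). At an unadjusted p under 0.05, 6 were higher and none was lower (background 4.3% and 3.96%). In 9 of the 10, all but Lpl, both males lay above every female, against a background of 9.78% of all genes (9.23% in the other direction, where none of the 10 fell). Gpnmb measured 14.0 and 46.9 CPM in males and 6.95, 2.24 and 1.66 CPM in females (log2 fold change 3.08, SE 0.87, edgeR adjusted p = 0.395). Clec7a measured 29.3 and 19.7 CPM in males and 8.45, 0.447 and 4.76 CPM in females (log2 fold change 2.43, SE 1.25, edgeR adjusted p = 0.626). None of the 10 genes passed an adjusted p under 0.05, while 6 of all genes did (0.0372%). The count of 6 fell to 3 without LG72 Trem2+/+ female 2 (3.18% of all genes) and to 2 without Trem2+/+ male 2 (1.29%). It was 4 with limma-voom (3.9%), 9 in a fit of the compared groups alone (3.46%) and 5 without the 6 libraries high in genes of neighbouring tissues (4.13%), where 1 control female was left. Of the 20 resting microglia genes, 18 were higher in the control males (median 0.93), 9 of them at an unadjusted p under 0.05. Of the markers of hippocampal excitatory neurons 8 of 10 were higher in the males (median 0.78, 5 at an unadjusted p under 0.05, summed level 1108 and 1272 CPM against 735 to 766 CPM). Of the astrocyte markers 7 of 8 were higher (median 0.37, 3 at an unadjusted p under 0.05), and the part of these cells in the result was not tested.

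**Figure D4:**
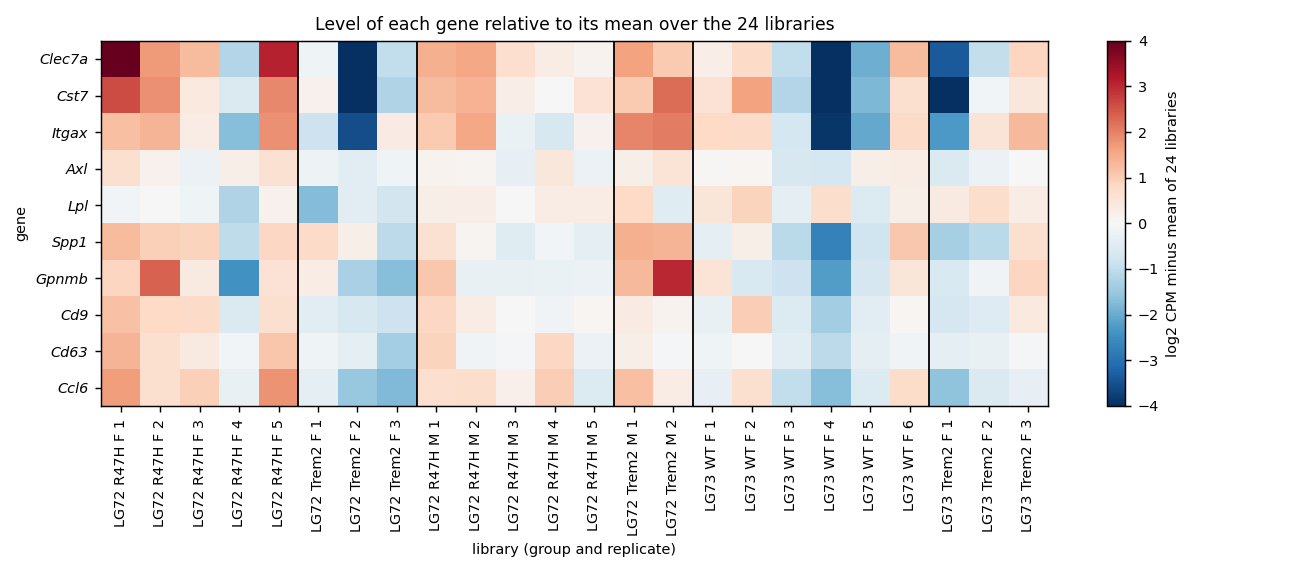
Log2 CPM of each gene minus its mean over the 24 libraries, by library, with groups separated by lines and the colour scale ending at 4 units either way. WT-TREM2 female 4 is lowest of all libraries for 6 genes and R47H-TREM2 female 1 highest for 5.

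A WT-TREM2 allele, compared with LG73 Trem2+/+ females, gave small differences. Of the 10 genes, 6 had a higher fitted level, as did 54.6% of all genes (median log2 fold change 0.11, 0.04 over all genes), none had an unadjusted p under 0.05 in either direction (background 2.28% higher and 1.63% lower), and the groups overlapped for all 10 (1.37% of all genes lay above and 1.45% below without overlap). No gene passed an adjusted p under 0.05 (0% called by edgeR, 630 genes at an unadjusted p under 0.05). Clec7a measured from 0 to 23.0 CPM in the 6 WT-TREM2 females, with a median of 8.15 CPM, and 0.834, 4.84 and 17.2 CPM in the 3 controls. The log2 fold change was 0.35 (SE 0.99, edgeR adjusted p = 0.944). Ccl6 had the largest log2 fold change of the 10, at 0.65 (SE 0.52, edgeR adjusted p = 0.860). It measured from 1.4998 to 8.64 CPM, with a median of 3.77 CPM, against 1.62, 3.41 and 4.07 CPM. WT-TREM2 females 2 and 6 lay above the controls for Ccl6, and WT-TREM2 female 4 below them.

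WT-TREM2 females varied widely among themselves. WT-TREM2 female 4 had the lowest score of all 24 libraries for the 10 genes (−2.35), a count of 0 for Clec7a and Cst7, and the lowest level of 6 of the 10 genes. Spp1 ran from 1.11 to 16.7 CPM in this group and Cd9 from 29.7 to 156 CPM. The number of genes with a higher fitted level ran from 2 to 9 of 10 when a single library was left out, with 2 without LG73 Trem2+/+ female 1, 4 without LG73 Trem2+/+ female 2 or WT-TREM2 female 2 or 6, and 9 without LG73 Trem2+/+ female 3. Without the 6 libraries high in genes of neighbouring tissues it was 8, none of them at an unadjusted p under 0.05 (0.606% of all genes). Of the 32 further programme genes 16 were higher, and 12 of 20 resting microglia genes. Mamdc2, named among genes of this programme in mouse amyloid models, measured 0.876 to 4.996 CPM against 4.54 to 7.65 CPM (log2 fold change −1.25, SE 0.56, edgeR adjusted p = 0.860). Apoe, the lipid carrier of glia, measured 1524 to 6324 CPM against 1884 to 2178 CPM (log2 fold change 0.58, SE 0.34, edgeR adjusted p = 0.860).

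The R47H effect and the WT-TREM2 effect in females were compared in the same fit, each against its own controls, since the 2 alleles never shared a prefix. The fitted R47H effect was the larger for all 10 genes and for 46.6% of all genes, by a median of 1.53 log2 units (−0.04 over all genes), and 5 of the 10 had an unadjusted p under 0.05 (Clec7a, Gpnmb, Cd9, Cd63 and Ccl6; background 5.44%, and 3.61% in the other direction). No gene passed an adjusted p under 0.05 (0% called by edgeR, 1459 genes at an unadjusted p under 0.05). The difference was 1.43 log2 units for Cd63 (SE 0.44, edgeR adjusted p = 0.342) and 3.41 for Clec7a (SE 1.45, edgeR adjusted p = 0.481). For Spp1 it was 0.49 (SE 0.81, edgeR adjusted p = 0.928), and it turned to −0.50 without the 6 libraries high in genes of neighbouring tissues, where 9 of 10 effects were larger and 2 had an unadjusted p under 0.05 (2.08% of all genes). The count of 5 fell to 3 without LG72 Trem2+/+ female 3 (4.65% of all genes), WT-TREM2 female 3 (4.57%) or WT-TREM2 female 5 (5.58%). It fell to 2 without R47H-TREM2 female 1 (4.37%) or LG72 Trem2+/+ female 2 (5.07%), and to 1 without LG73 Trem2+/+ female 3 (3.24%). It was 3 in a fit of the compared groups alone (4.99%) and 2 with limma-voom (3.99%). Markers of some other cell types differed in the same direction, and their part in the result was not tested. The difference was above 0 for only 1 of 10 neuronal markers (median −0.28) and 2 of 5 markers of oligodendrocyte precursors (median −0.03). For hippocampal excitatory neurons it was above 0 for 5 of 10 markers. It was above 0 for all 9 choroid plexus markers (median 3.67, all 9 at an unadjusted p under 0.05). The same held for all 20 resting microglia genes (median 0.89, 7 at that level) and all 10 oligodendrocyte markers (median 0.94, 2 at that level).

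The control females of the 2 prefixes were compared as well. Of the 10 genes, 2 were higher in LG72 than in LG73, against 53.2% of all genes (median log2 fold change −0.51, 0.02 over all genes). None was higher at an unadjusted p under 0.05 (2.28% of all genes) and 1, Lpl, was lower (2.01%), while no gene of all passed an adjusted p under 0.05 (0% called by edgeR, 691 genes at an unadjusted p under 0.05). Lpl measured 34.7, 85.9 and 69.2 CPM in LG72 and 149, 187 and 142 CPM in LG73. The groups did not overlap, which was so for 5.37% of all genes in this direction and 4.09% in the other (log2 fold change −1.33, SE 0.37, edgeR adjusted p = 0.774). The WT-TREM2 females, at 79.1 to 215 CPM of Lpl, overlapped both control groups. Of 10 markers of hippocampal excitatory neurons, 7 were lower in LG72 as well (median −0.55, 5 at an unadjusted p under 0.05). Of 20 resting microglia genes 3 were higher (median −0.39). None of 10 oligodendrocyte markers (median −0.49) or 9 choroid plexus markers (median −1.85) was higher. In the other direction, 7 of 10 neuronal markers (median 0.03) and 3 of 5 tested border macrophage markers (median 0.69) were higher. The part of these cells in the result was not tested. Without the 6 libraries high in genes of neighbouring tissues, which left 1 LG72 library and 2 of LG73, 1 of the 10 genes was higher, 5 lay below without overlap (33.3% of all genes) and none had an unadjusted p under 0.05.

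Across the 24 libraries, 9 of the 10 genes varied together. Of 45 pairs 43 had a Spearman's rho above 0, with a median of 0.721, and the median was 0.568 after the mean of each group had been removed. Libraries share depth, dissection and group, so these values describe this series. The highest rho was 0.916, for Clec7a with Cst7, and the lowest −0.138, for Axl with Lpl. Lpl stood apart, with a median rho of 0.134 to the other 9, while Clec7a had a median of 0.843. Lpl had its highest rho among the cell-type marker lists with genes of hippocampal excitatory neurons (0.470). Axl had its highest with astrocyte markers (0.857) and Spp1 with border macrophage markers (0.819). Cd9 (0.944), Cst7 (0.923) and Clec7a (0.911) had theirs with resting microglia genes. Cd63 reached 0.815 with astrocyte markers and 0.783 with resting microglia genes, and Ccl6 0.765 and 0.760. Of the 10 genes, Cd63 (−0.611) and Ccl6 (−0.476) had the lowest rho with total counts and Lpl (0.0278) the highest. Among the genes whose levels were most like the 10, by the median rho to them over the 24 libraries, were Tnfrsf1a (0.860), Vim (0.860), C4b (0.845), Cnn3 (0.840), Apobec3 (0.831), Tlr2 (0.830), Gfap (0.827), Ly86 (0.827) and Arpc1b (0.824). Vim and Gfap encode intermediate filaments of astrocytes, Tlr2 and Ly86 parts of Toll-like receptor sensing, and C4b a complement component.

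**Figure D5:**
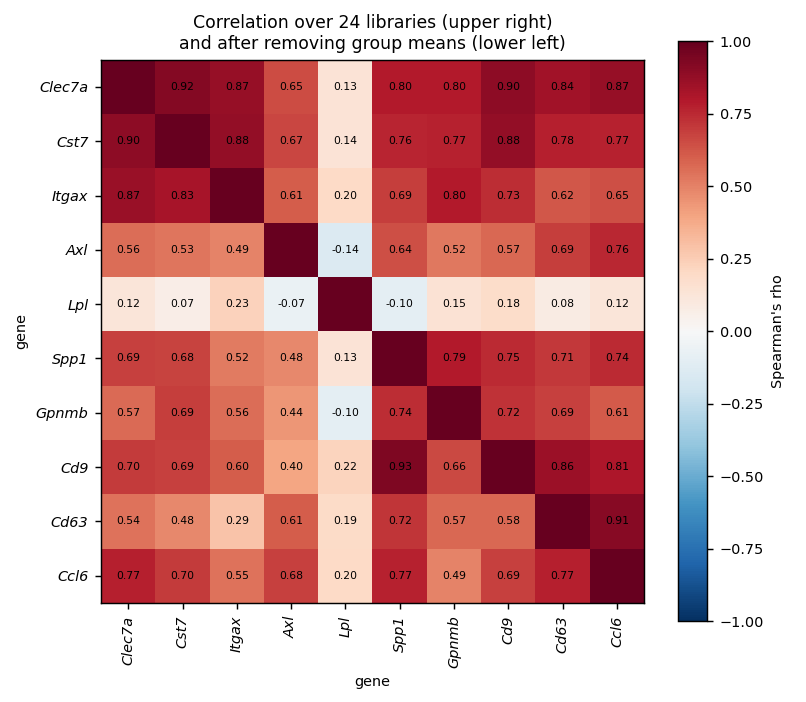
Spearman's rho between the 10 genes over 24 libraries (upper right) and after the mean of each group was removed (lower left). The row and column of Lpl are near 0, with a median rho of 0.134, while the other genes correlate with each other.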

How the data were processed

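Read counts per gene symbol were used as the authors deposited them, as whole numbers. The reads were aligned to GRCm38 per the submitters' processing notes. The labels and headers name no aligner, counter, annotation or strand setting. Of the deposited columns, 18 matched no sample and were not used here. Another 25 symbols had been turned into dates (0.353% of counts).

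Genes were filtered with filterByExpr, scaled by TMM and fitted with edgeR 4.0.16 (quasi-likelihood, R 4.3.3) with 6 group means over 24 libraries. Adjusted p-values are Benjamini-Hochberg values over the 16118 genes. The common biological coefficient of variation was 0.318. No pair of libraries within a group agreed within sampling noise (lowest chi-square per degree of freedom 10.7). Alternatives were DESeq2 1.42.0 (size factors, Wald test), limma-voom 3.58.1, no filter, fits restricted to the groups in question, and leaving out libraries. Exon lengths came from GENCODE M21.

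The 10 genes and the lists were chosen with earlier results of these data known. Replicates were numbered in accession order. Further programme genes named were the 3 with the smallest p in each genotype comparison, and genes like the 10 were taken from the first 10 by median rho. Some results are not reported here.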

Additional observations from a re-analysis of the deposited data

Results flagged for a closer look

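Libraries far from the rest of their group were looked for in 33 combinations of a gene and a group of 4 or more libraries, where chance flags about 1 in 20, and 2 were found. Both lay in the R47H-TREM2 males. Lpl was at 116 CPM in R47H-TREM2 male 3, below the other 4 males of the group. Gpnmb was at 12.1 CPM in R47H-TREM2 male 1, above the other 4, which lay within 4.60 to 4.81 CPM.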

How the results depend on the processing

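No paired analysis was possible because the replicate numbers follow accession order and pair no samples. Over all genes tested, the Wald test of DESeq2 called 187 genes in R47H-TREM2 females (2 of the 10), 3 in males, 13 and 1 for the differences of the R47H effect from the WT-TREM2 effect and between the sexes, and 2 and 27 for the controls of LG72 against LG73 and for control males against females. Without a filter 1 gene was called in R47H-TREM2 females. Leaving out 1 library gave 0 to 7 calls in females, 0 to 48 in males, 0 to 1 for both differences, 0 to 2 between the prefixes and 5 to 43 between control males and females. The causes were not tested. In WT-TREM2 females the median of the 10 genes was −0.0654 with limma-voom and ran from −0.18 to 0.43 with a library left out. The median difference of log2 CPM was 0.663 among libraries with Alb above 30 CPM (4 against 1) and −0.406 among those under it (2 against 2). In R47H-TREM2 females it was 0.696 (2 against 2) and 2.03 (3 against 1), and in males −0.712 (4 against 1) and −0.01 (1 against 1). Relative to resting microglia genes it was 0.297 in females.

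The log2 fold change of some genes changed sign. In males, limma-voom gave 0.0696 for Lpl, −0.0347 for Cd9 and −0.0581 for Cd63, and DESeq2's size factors and Wald test gave −0.00694 and −0.00672 for Cd9. With a library left out, Lpl ran from −0.57 to 0.70, Cd9 from −0.18 to 0.12 and Ccl6 from −0.71 to 0.22. In WT-TREM2 females limma-voom gave −0.0422 for Clec7a and −0.0887 for Cd9, and leaving out the 6 libraries high in Prl, Omp or Adora2a gave 0.38 for Itgax and 0.24 for Gpnmb. With 1 library left out the ranges were −0.19 to 1.80 for Clec7a, −0.00720 to 1.39 for Cst7, −0.96 to 0.34 for Itgax, −0.37 to 1.01 for Spp1, −0.75 to 0.0864 for Gpnmb, −0.26 to 0.52 for Cd9 and −0.18 to 0.00661 for Cd63. The difference of the R47H and WT-TREM2 effects for Spp1 ran from −0.40 to 0.98 (−0.50 without the 6 libraries), and the difference between the sexes for Lpl from −0.0797 to 1.23. Between control females, Axl was −0.0638 with limma-voom and −0.0462 without the 6 libraries, and ran from −0.13 to 0.14, Clec7a from −1.49 to 0.71 and Cst7 from −1.81 to 0.22. In R47H-TREM2 females all 10 genes had a positive sign in every fit tried with edgeR, DESeq2 or limma. Genes at a few CPM, such as Cst7, rest on few reads, and the 2 control males limit every male result.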

Other observations

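The 9 choroid plexus markers were all higher in R47H-TREM2 females (median log2 fold change 1.74, summed level 636 to 5962 CPM against 336 to 1257 CPM) and in R47H-TREM2 males (median 2.64, 261 to 4377 CPM against 378 to 433 CPM), and all 9 were lower in WT-TREM2 females (median −2.24, 179 to 1327 CPM against 1142 to 3029 CPM). Over the 24 libraries the rho of this list with the score of the 10 genes was 0.193. The 10 neuronal markers had a rho of −0.396 with the score, and 9 of these 10 were lower in R47H-TREM2 females (median −0.33). No gene of these lists passed an adjusted p under 0.05 in the 3 genotype comparisons (edgeR).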
